A study of Homo sapiens with 9 samples.

Results

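The aminoacyl-tRNA synthetases are the enzymes that join each amino acid to its transfer RNA before translation. The 36 genes described here were taken by name from the 27315 gene rows of the deposited table, and all 36 were abundant enough to be among the 13165 genes tested. The rule that chose them uses gene names alone. They divide into 20 enzymes that work in the cytosol and 16 that work in mitochondria, whose gene names end in 2. GARS and KARS encode both the cytosolic and the mitochondrial enzyme for glycine and lysine, and are counted as cytosolic. Current nomenclature adds a 1 to most cytosolic names (AARS1 for AARS), and the older names of the table are kept.

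Each enzyme recognises 1 amino acid and the transfer RNAs that carry it, except EPRS, which joins both glutamate and proline. The enzymes belong to classes I and II, which have unrelated catalytic folds. Of the cytosolic enzymes, 8 sit in the multi-synthetase complex, held together by the scaffold proteins AIMP1, AIMP2 and EEF1E1. When a transfer RNA stays uncharged, the kinase GCN2 phosphorylates the initiation factor eIF2, translation slows, and the transcription factor ATF4 is made. ATF4 is known to induce many cytosolic synthetase genes together with enzymes of amino acid synthesis, and far fewer of the mitochondrial ones.

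MDA-MB-468 is an established cell line from a human breast tumour of the triple-negative kind. The cells were infected with lentiviruses made in 293T packaging cells that carried pLKO.1 hairpins, and then kept under drug selection. The sample titles give 3 libraries with hairpin sh6 against BBOX1, 3 with hairpin sh1 against BBOX1, and 3 with a control hairpin. BBOX1 encodes gamma-butyrobetaine hydroxylase, which makes carnitine. All 9 libraries come from 1 line, they share 1 control group, and only the target of sh1 is among the sequences the labels give. The labels speak of triplicates without saying whether these were separate infections, so the p values describe only how far these libraries vary, and that variation may be technical.

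Levels are normalised counts, recovered from the deposited values. The libraries had from 15734976 to 19740093 recovered reads. The deposited scaling between libraries was kept, and it did not make their totals equal. Normalised totals were 17180837 to 17266898 with sh6, 15915553 to 16146718 with sh1 and 17316682 to 17387504 in the control. BBOX1 averaged 601 ± 19.0 with sh6, 333 ± 11.5 with sh1 and 2616 ± 226 in the control (SD, n = 3 each), that is 23.0% (sh6) and 12.7% (sh1) of the control mean, with no overlap between a hairpin group and the control. The exact two-sided permutation p was 0.1 for each hairpin, the smallest that 3 against 3 allows. Of 8 breast epithelial and basal markers, 7 had group means from 4433 to 58770 (EGFR, KRT5, KRT17, KRT18, KRT19, EPCAM and CDH1), and KRT14 had means from 28.6 to 83.6. Of the receptors that are low in triple-negative lines, PGR was at 0. ESR1 averaged 109 with sh6, 242 with sh1 and 227 in the control, and ERBB2 averaged 602 with sh6, 753 with sh1 and 1091 in the control. Of the leucocyte markers, PTPRC and CD3E averaged at most 3.53. CD14 averaged 202 with sh6, 371 with sh1 and 1441 in the control. The leucocyte list therefore summed to 183 to 222 with sh6, 330.2 to 456 with sh1 and 1372 to 1586 in the control, and its part in the results was not tested.

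Per kilobase of transcript, which allows genes to be compared, the cytosolic enzymes were several times more abundant than the mitochondrial ones. Their median was 1047 normalised counts per kb with sh6, 1089 with sh1 and 976 in the control. The mitochondrial median was 202 with sh6, 211 with sh1 and 195 in the control. KARS, the lysine enzyme, had the highest level, with 3611 ± 33.4 with sh6, 2974 ± 101 with sh1 and 3149 ± 134 in the control. SARS, GARS and TARS, for serine, glycine and threonine, followed it in the control at 2779 ± 175, 2635 ± 187 and 2351 ± 79.2 per kb, the first 2 of them within each other's spread. The lowest was MARS2, the mitochondrial methionine enzyme, at 52.3 ± 8.35 with sh6, 66.2 ± 2.34 with sh1 and 47.9 ± 1.82 in the control.

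Mitochondrial enzymes were not all low. IARS2, for isoleucine, stood at 127% ± 2.03 of its cytosolic counterpart IARS per kb with sh6, 113% ± 3.96 with sh1 and 141% ± 2.50 in the control (SD over 3 libraries). CARS2, for cysteine, was at 125% ± 13.1 of CARS with sh6, 133% ± 4.32 with sh1 and 101% ± 12.3 in the control. RARS2, for arginine, reached 63.1% of RARS with sh6, 55.3% with sh1 and 48.6% in the control. At the other end, MARS2 was at 3.55% of MARS with sh6, 3.87% with sh1 and 3.38% in the control. In proportion to the control ratio, the pairs that moved most were HARS2 with HARS and SARS2 with SARS. In percentage points, CARS2, IARS2 and RARS2 moved more than SARS2. HARS2 was at 54.6% ± 0.966 of HARS with sh6, 24.5% ± 1.33 with sh1 and 75.5% ± 7.52 in the control. SARS2 was at 15.6% ± 0.989 of SARS with sh6, 9.04% ± 0.115 with sh1 and 5.84% ± 1.07 in the control. These per kb values use GENCODE transcript lengths and carry no test.

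**Figure D1:**
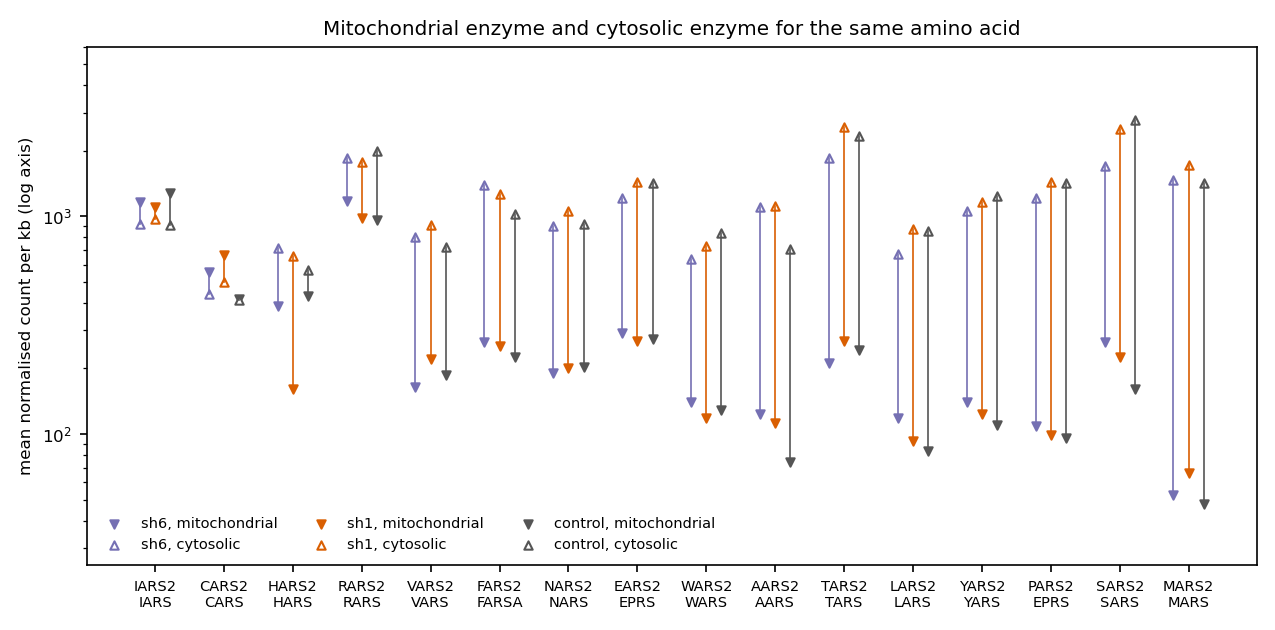
Mean normalised count per kb of transcript (log axis) of each mitochondrial synthetase (filled triangles, pointing down) and of the cytosolic enzyme for the same amino acid (open triangles, pointing up), for sh6, sh1 and control libraries, with FARSA and EPRS as the partners of FARS2, EARS2 and PARS2. IARS2 lies above IARS in each group, MARS2 lies furthest below its partner, and the gap between HARS2 and HARS is widest with sh1.

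Summed over all members, the cytosolic transcripts were highest with sh1 and lowest with sh6. The 20 cytosolic genes summed to 70882, 71478 and 71928 normalised counts in the sh6 libraries, 80671, 78143 and 79870 in the sh1 libraries and 76797, 76028 and 75368 in the control libraries. The 3 groups did not overlap, and the sh1 libraries lay above the control while the sh6 libraries lay below it. The 16 mitochondrial genes summed to 13272, 13557 and 13430 with sh6, 12594, 12383 and 12525 with sh1 and 12295, 12653 and 13174 in the control. There the sh6 libraries were the highest, and sh1 overlapped the control. As a share of all normalised counts, however, the mitochondrial genes made up 0.0769% to 0.0789% with sh6, 0.0778% to 0.0780% with sh1 and 0.0710% to 0.0758% in the control. On that scale both hairpins lay above the control and overlapped each other. The cytosolic share kept the order of the sums, at 0.411% to 0.418% with sh6, at least 0.491% with sh1 and 0.434% to 0.443% in the control. In bulk RNA, fewer cells that express a gene and less RNA per cell cannot be told apart.

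A gene is said to have risen or fallen where limma's test on the deposited log2-like values gave an adjusted p under 0.05 (Benjamini-Hochberg over the 13165 genes tested). With sh1, 9 of the 20 cytosolic genes rose and 4 fell against the control, and 7 did not pass the test. Over all genes tested, 29.0% rose and 30.0% fell in this comparison. Of the 16 mitochondrial genes 5 rose, 2 fell and 9 did not pass. The median log2 change was 0.09 for the cytosolic and 0.12 for the mitochondrial genes, against 0.00 for all genes. Quantile normalisation moved the split to 14 higher and 1 lower among the cytosolic genes and to 5 and 1 among the mitochondrial ones. Over all 13165 genes tested, 4148 rose and 3733 fell under that scaling. Without control replicate 1 the cytosolic genes that fell numbered 2, and without control replicate 3 the mitochondrial genes that rose numbered 8.

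With sh6, 5 cytosolic genes rose, 8 fell and 7 did not pass, where 34.2% of all genes rose and 33.6% fell. Among the mitochondrial genes 7 rose, 3 fell and 6 did not pass. The medians were 0.00 (cytosolic) and 0.12 (mitochondrial), against 0.01 for all genes. Median centring gave 8 higher and 1 lower for the mitochondrial genes, where 4802 of all genes rose and 4115 fell. The mitochondrial genes that fell numbered 0 without control replicate 3 and 1 without sh6 replicate 2.

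The mean of both hairpins against the control, where 32.3% of all genes rose and 33.1% fell, gave 7 higher, 9 lower and 4 not passing among the cytosolic genes. The mitochondrial genes gave 8 higher, 2 lower and 6 not passing. Their medians were 0.06 and 0.12, against 0.00 for all genes. Under quantile normalisation the cytosolic split became 11 higher and 5 lower, where 4533 of all genes rose and 4103 fell. The authors' deposited table, whose comparison is not stated, lists 4 cytosolic genes higher and 2 lower at an adjusted p under 0.05, and 4 mitochondrial genes higher and 1 lower. The share of all genes past that threshold in the authors' comparison was not counted. Of the 12 called members with the largest change for the mean of both hairpins, HARS2, SARS and LARS2 were not past it (authors' adjusted p = 0.141, 0.0673 and 0.0543).

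**Figure D2:**
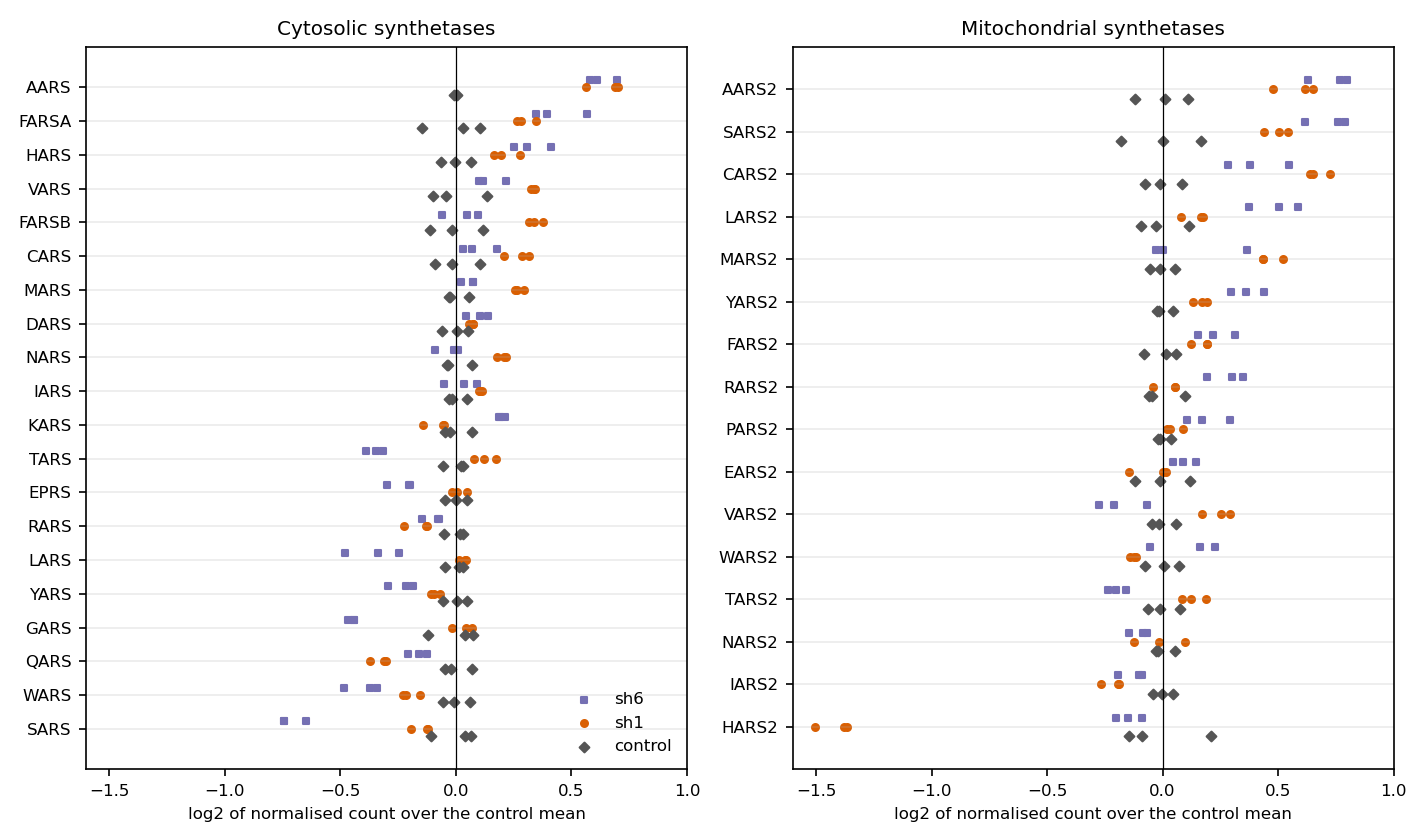
Each point is 1 library: the log2 of its normalised count over the control mean (x axis) for every synthetase (y axis), cytosolic on the left and mitochondrial on the right, with sh6 as squares, sh1 as circles and control as diamonds. AARS, AARS2, SARS2 and CARS2 lie to the right of the control in all 6 hairpin libraries, WARS, QARS and IARS2 to the left, and HARS2 stands far to the left with sh1.

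AARS, the cytosolic alanine enzyme, showed the largest cytosolic rise. It had 4004, 3693 and 3768 normalised counts with sh6, 3973, 3646 and 4016 with sh1 and 2471, 2477 and 2454 in the control. All 6 hairpin libraries lay above the control, at a similar height for both hairpins. The means were 1.57 times the control with sh1 (log2 change 0.64, SE 0.0534, limma adjusted p = 1.0e-11) and 1.55 times with sh6 (0.62, adjusted p = 1.4e-11). Its mitochondrial counterpart AARS2 also rose, with 499, 489 and 444 in the sh6 libraries, 400, 451 and 439.9 in the sh1 libraries and 289, 264 and 309.7 in control libraries. The log2 change of AARS2 was 0.50 with sh1 (SE 0.0750, limma adjusted p = 1.2e-06) and 0.63 with sh6 (adjusted p = 1.1e-08). Relative to AARS per kb, AARS2 stood at 11.3% with sh6, 10.0% with sh1 and 10.5% in the control.

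SARS2, the mitochondrial serine enzyme, had 453, 443 and 401 normalised counts with sh6, 372, 382 and 355 with sh1 and 262, 231 and 294 in the control. The 6 hairpin libraries lay above the 3 controls. It rose to 1.41 times the control with sh1 (log2 change 0.42, limma adjusted p = 3.1e-05) and 1.65 times with sh6 (0.61, adjusted p = 4.3e-08). CARS2, the mitochondrial cysteine enzyme, had 1143, 1019 and 954 with sh6, 1218, 1293 and 1230 with sh1 and 742, 778 and 830.3 in the control. Here sh1 stood highest, sh6 between, and the control lowest, without overlap. The CARS2 log2 change was 0.63 with sh1 (SE 0.0651, limma adjusted p = 9.5e-10) and 0.38 with sh6 (adjusted p = 7.2e-06), and sh6 lay below sh1 by a called difference (-0.25, adjusted p = 0.00127).

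FARSA encodes the catalytic subunit of the cytosolic phenylalanine enzyme and FARSB its other subunit. FARSA had 3131, 2686 and 2779 with sh6, 2570, 2538 and 2689 with sh1 and 2161, 1910 and 2269 in the control, all hairpin libraries above all controls. Its log2 change was 0.29 with sh1 (limma adjusted p = 0.000160) and 0.43 with sh6 (adjusted p = 4.6e-07). FARSB had 1418, 1529 and 1578 with sh6, 1865, 1837 and 1916 with sh1 and 1604, 1460 and 1367 in the control. The sh1 libraries lay above the control and the sh6 libraries overlapped it. FARSB rose with sh1 (log2 change 0.33, limma adjusted p = 2.1e-05), beside 0.03 with sh6 (adjusted p = 0.669). The subunits of this enzyme thus had different values with sh6, where FARSA rose and FARSB did not pass the test.

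VARS, the cytosolic valine enzyme, had 3624, 3386 and 3347 with sh6, 3917, 3958 and 3949 with sh1 and 3027, 2912 and 3429 in the control. The sh1 libraries stood above the control and the sh6 libraries overlapped its highest library. VARS rose with sh1 (log2 change 0.33, limma adjusted p = 8.7e-06) and by less with sh6 (0.14, adjusted p = 0.0258). The call with sh6 was lost without control replicate 1, control replicate 2 or sh6 replicate 1 (adjusted p = 0.104, 0.154 and 0.107). It was also lost under eBayes without a trend and without a filter (limma adjusted p = 0.0735 and 0.142). LARS2, the mitochondrial leucine enzyme, had 598, 564 and 516 with sh6, 449, 421 and 447 with sh1 and 373, 389.8 and 431 in the control. All sh6 libraries of LARS2 lay above the control, and the sh1 libraries overlapped it. The log2 change was 0.43 with sh6 (SE 0.0723, limma adjusted p = 4.2e-06) and 0.12 with sh1 (adjusted p = 0.138), which passed without control replicate 3 (adjusted p = 0.0465).

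**Figure D3:**
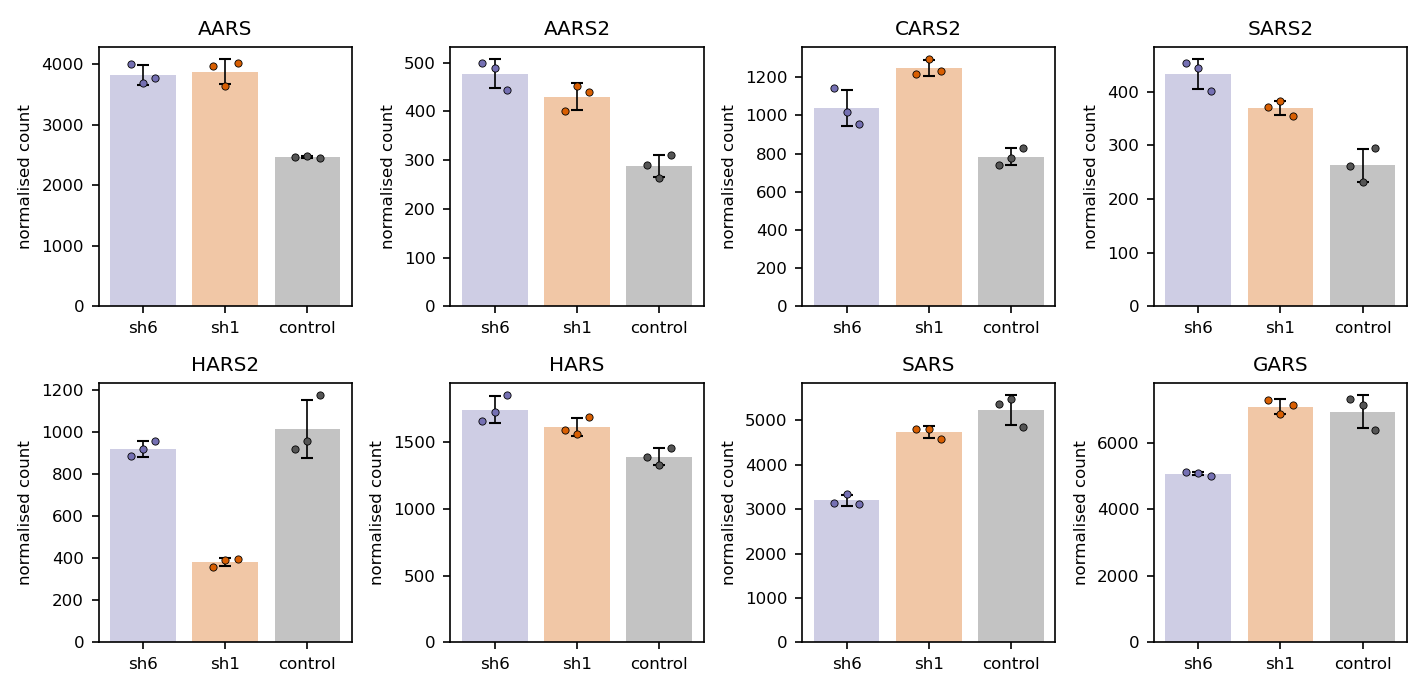
Normalised counts (y axis from 0) of 8 synthetases in sh6, sh1 and control libraries, as points with bars at the mean and error bars of 1 SD, n = 3 each. AARS, AARS2, SARS2, CARS2 and HARS are higher with both hairpins, HARS2 is low with sh1, and SARS and GARS are lowest with sh6.

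SARS, the cytosolic serine enzyme, fell most among the cytosolic genes for the mean of both hairpins (log2 change -0.42), while SARS2 rose (0.52). SARS had 3127, 3338 and 3120 normalised counts with sh6, 4800, 4808 and 4569 with sh1 and 5370, 5467 and 4853 in the control. The sh6 libraries stood far below the others, and the sh1 libraries lay just under the lowest control. SARS with sh6 was 1.64-fold lower than the control (log2 change -0.70, SE 0.0543, limma adjusted p = 1.2e-12). With sh1 it was -0.14 (adjusted p = 0.0245), and this call was lost without control replicate 1, control replicate 2 or sh1 replicate 3 (adjusted p = 0.105, 0.109 and 0.117) and under median centring (adjusted p = 0.0525). The SARS call with sh1 was also lost under eBayes without a trend and without a filter (limma adjusted p = 0.0698 and 0.103). Quantile normalisation turned the SARS change with sh1 to 0.01 (adjusted p = 0.896).

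WARS, the cytosolic tryptophan enzyme, is also known as an interferon-gamma-induced gene. It had 2041, 1845 and 1997 with sh6, 2320, 2227 and 2203 with sh1 and 2698, 2569 and 2482 in the control, with sh6 lowest, sh1 next and the control highest, without overlap. The log2 change was -0.19 with sh1 (limma adjusted p = 0.00340; 0.0707 under quantile normalisation) and -0.39 with sh6 (adjusted p = 3.5e-07). QARS, the glutamine enzyme of the complex, had 3012, 2936 and 2841 with sh6, 2643, 2537 and 2660 with sh1 and 3231, 3172 and 3438 in the control. Here sh1 was lowest, and both hairpin groups lay under the control. QARS fell by 0.32 on the log2 scale with sh1 (limma adjusted p = 4.9e-06) and by 0.16 with sh6 (adjusted p = 0.00866).

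IARS2, the most abundant mitochondrial member per kb in the control, also fell. It had 3970, 4240 and 4275 with sh6, 3981, 3776 and 3983 with sh1 and 4415, 4538 and 4683 in the control, with every hairpin library below every control. The log2 change was -0.21 with sh1 (limma adjusted p = 0.000765; 0.102 under quantile normalisation). With sh6 it was -0.13 (adjusted p = 0.0330), a call lost under median centring (0.0868) and without control replicate 2, control replicate 3 or sh6 replicate 1 (adjusted p = 0.0521, 0.0860 and 0.122).

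HARS and HARS2, for cytosolic and mitochondrial histidine, lie head to head on chromosome 5. The RefSeq start sites of the 2 genes are 85 bases apart (GRCh38.p14), HARS reading to the left and HARS2 to the right. The stretch chr5:140691351-140691474, plus strand, is printed because both genes start in it, with the bases from one start to the other in capitals.

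HARS and HARS2 start region: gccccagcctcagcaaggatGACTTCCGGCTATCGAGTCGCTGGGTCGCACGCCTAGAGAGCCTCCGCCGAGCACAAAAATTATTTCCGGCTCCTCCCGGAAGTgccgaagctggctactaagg

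HARS2 had 885, 918 and 957 normalised counts with sh6, 359, 391 and 395 with sh1 and 919.8, 956 and 1175 in the control. The sh1 libraries were far below all others, and the sh6 libraries overlapped the control. HARS2 was 2.67-fold lower with sh1 (log2 change -1.28, SE 0.0732, limma adjusted p = 1.4e-15), the largest change of any member in any comparison. With sh6 the log2 change was -0.13 (adjusted p = 0.119, and 0.0380 without control replicate 1). The difference of sh6 from sh1 was 1.15 (SE 0.0732, limma adjusted p = 2.1e-14).

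HARS, across the shared start region, was higher with sh1 where HARS2 was lower. It had 1653, 1720 and 1847 with sh6, 1589, 1559 and 1684 with sh1 and 1384, 1329 and 1452 in the control, with all hairpin libraries above all controls. HARS rose by a log2 change of 0.21 with sh1 (SE 0.0582, limma adjusted p = 0.00316) and 0.31 with sh6 (adjusted p = 2.2e-05). ZMAT2, a gene for a splicing protein, follows HARS2 on the same strand. Their GENCODE annotations overlap by 639 bases, while in RefSeq they do not overlap. There HARS2 ends at 140699305 and ZMAT2 starts at 140700447. ZMAT2 had 759, 869 and 745 with sh6, 1673, 1620 and 1454 with sh1 and 1458, 1598 and 1601 in the control, so that there the sh6 libraries were the low ones. Its log2 change was 0.03 with sh1 (limma adjusted p = 0.755) and -0.92 with sh6 (adjusted p = 1.3e-13). In GENCODE the annotations of HARS and HARS2 overlap by 437 bases on opposite strands. No source used here says whether reads were counted by strand. HARS2 and HARS transcripts shared 0 words of 31 bases. The words were compared only as each transcript reads, which cannot show sharing across opposite strands.

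The hairpin sh1 was designed against BBOX1 on chromosome 11, and its target is shown because HARS2 changed with sh1. Capitals mark the 7 bases that pair with the seed of the hairpin's guide strand.

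sh1 target: cctctacctttgtGGACTTTa

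Laid without gaps along a member's transcript, this 21-base target matched at most 11 to 15 bases, with 13 in HARS2, against 21 in BBOX1. The matching bases need not be adjacent, and the longest unbroken stretch was not measured. The capital word was in the 3′ untranslated region of 10.8% of the 18206 genes whose region has at least 50 bases. It was in that of 0 of the 36 members, for which no such minimum was set. FARS2 has no such region in the transcript used, and those of RARS2 and SARS2 have 35 and 42 bases. The part of other effects of the hairpin in the HARS2 value was not tested.

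The promoters of the members were searched for 1 motif, TGATGNAA on either strand, the core of the C/EBP-ATF response element that ATF4 binds. RefSeq windows from 250 bases before to 50 bases after the start site were at hand for 30 members. The motif was found in 7 of 16 cytosolic members and in 1 of 14 mitochondrial members with a window, beside 4.46% of 27305 genes. No window was at hand for AARS2, DARS, LARS, VARS, VARS2 and YARS. The 8 matches are printed below on each gene's own strand with 10 bases on each side and the motif, or its reverse complement, in capitals (GRCh38.p14). They let the element be set beside the values that follow.
AARS (alanine), chr16:70289676-70289703: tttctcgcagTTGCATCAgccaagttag
CARS (cysteine), chr11:3057408-3057435: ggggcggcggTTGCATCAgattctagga
GARS (glycine), chr7:30594835-30594862: tacgcggcgaTTTCATCAtgctccgagc
IARS (isoleucine), chr9:92293693-92293720: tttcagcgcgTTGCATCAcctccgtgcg
MARS (methionine), chr12:57488054-57488081: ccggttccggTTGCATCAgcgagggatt
NARS (asparagine), chr18:57621805-57621832: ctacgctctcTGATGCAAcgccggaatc
TARS (threonine), chr5:33440957-33440984: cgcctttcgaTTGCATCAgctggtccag
YARS2 (mitochondrial tyrosine), chr12:32756077-32756104: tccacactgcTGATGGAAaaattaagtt

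The first base of the match lay 187 bases before the start site of its window in AARS, 33 in GARS, 13 in IARS, 4 in MARS, 2 in CARS and 197 in YARS2. In TARS and NARS it lay at base 3 and base 15, counted from the start site of its window. CARS, GARS and TARS have 2 windows each, and the motif was in 1 of them. The RefSeq spans of GARS and TARS begin at 30594735 and 33440696, so these 2 matches lie inside the annotated genes. AARS, CARS, IARS, MARS, NARS and TARS carry the same 8 letters, TGATGCAA or its reverse complement. A match is a string of letters in the window and was not tested for binding.

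Set directly against each other, the hairpins left most of the called cytosolic genes lower with sh6. In sh6 against sh1, 2 of 20 cytosolic genes were higher, 12 lower and 6 not past the test, where 30.8% of all genes were higher and 28.9% lower. The cytosolic median was -0.18, against 0.01 for all genes. Of the mitochondrial genes 5 were higher, 4 lower and 7 not past the test, with a median of 0.12. Without sh1 replicate 1 or sh6 replicate 2, the mitochondrial genes that were higher numbered 3.

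Textbook knowledge describes 11 of the cytosolic genes as induced by ATF4 (AARS, CARS, EPRS, GARS, IARS, MARS, NARS, SARS, TARS, WARS and YARS). This list was drawn up with earlier results of these data known. In sh6 against sh1, 9 of these 11 were lower and 0 higher, with differences from -0.56 to -0.02. Of all genes, 30.8% were higher and 28.9% lower in sh6 against sh1. The 2 that did not pass were IARS (-0.08) and AARS (-0.02), which were called under quantile normalisation (-0.24 and -0.16). Of the other 9 cytosolic genes 2 were higher, 3 lower and 4 not past the test. Against the control, the 11 gave 5 higher and 2 lower with sh1, beside 29.0% and 30.0% of all genes. With sh6 they gave 1 higher and 6 lower, beside 34.2% and 33.6% of all genes. The 7 cytosolic genes with the promoter motif gave 5 higher and 0 lower with sh1, 1 higher and 2 lower with sh6, and 0 higher and 5 lower in sh6 against sh1. The 9 cytosolic genes whose window lacked it gave 3 higher and 4 lower with sh1, 3 higher and 4 lower with sh6, and 2 higher and 4 lower in sh6 against sh1. These are small groups, and the difference between them was not tested. Why the hairpins differed was not tested.

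**Figure D4:**
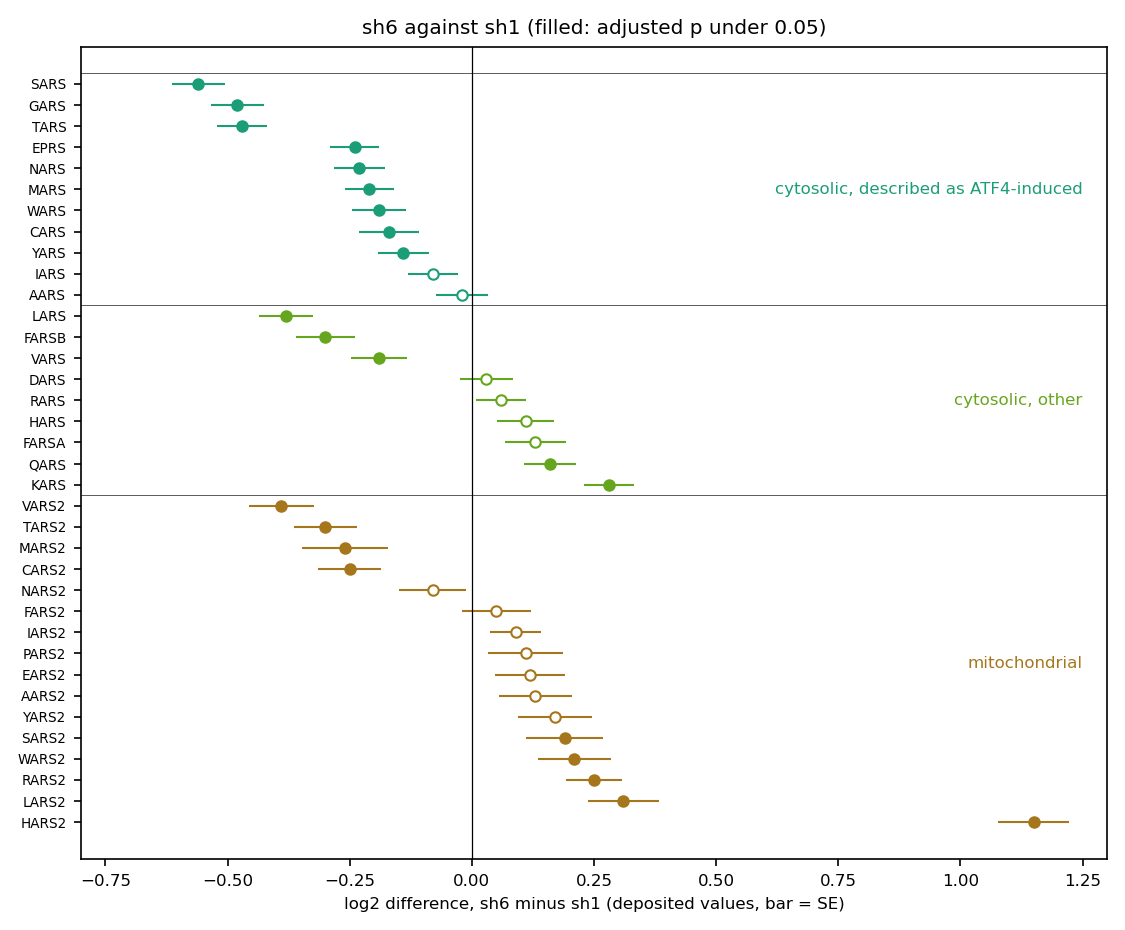
Log2 difference of sh6 minus sh1 on the deposited scale (x axis) for every synthetase (y axis), with bars of 1 SE and filled points where the adjusted p was under 0.05, in 3 blocks (cytosolic and described as ATF4-induced, cytosolic and other, mitochondrial). All 11 points of the top block lie left of 0, and HARS2 stands apart at 1.15.

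After SARS (-0.56, SE 0.0543, limma adjusted p = 3.3e-10), the next cytosolic differences between the hairpins were those of GARS, TARS and LARS. GARS had 5112, 5111 and 5016 normalised counts with sh6, 7288, 6857 and 7145 with sh1 and 7310, 7130 and 6382 in the control. The sh6 libraries were low, and sh1 overlapped the control. In sh6 against sh1, GARS was 1.40-fold lower (log2 difference -0.48, limma adjusted p = 6.3e-09). Against the control its log2 change was 0.03 with sh1 (adjusted p = 0.609; 0.18 and 0.00387 under quantile normalisation) and -0.44 with sh6 (limma adjusted p = 1.7e-08).

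TARS, the cytosolic threonine enzyme, had 4529, 4772 and 4663 with sh6, 6686, 6268 and 6444 with sh1 and 6064, 6027 and 5701 in the control. The sh1 libraries were highest and the sh6 libraries lowest, with no overlap between any groups. The difference of sh6 from sh1 was -0.47 (SE 0.0509, limma adjusted p = 3.0e-09). TARS fell with sh6 (log2 change -0.35, adjusted p = 6.0e-07) and rose slightly with sh1 (0.12, limma adjusted p = 0.0376). Its rise with sh1 was lost without control replicate 1, control replicate 3, sh1 replicate 1 or sh1 replicate 3 (adjusted p = 0.0518, 0.115, 0.163 and 0.0834).

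LARS, the leucine enzyme of the complex, had 2928, 3239 and 3442 with sh6, 4209, 4125 and 4195 with sh1 and 4174, 4127 and 3956 in the control. Again sh6 was low while sh1 overlapped the control. LARS differed by -0.38 between sh6 and sh1 (SE 0.0554, limma adjusted p = 7.3e-07). Its log2 change against the control was 0.03 with sh1 (adjusted p = 0.646; 0.15 and 0.0178 under quantile normalisation) and -0.35 with sh6 (limma adjusted p = 2.1e-06).

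VARS2, the mitochondrial valine enzyme, had 635, 575 and 549 with sh6, 749, 792 and 815 with sh1 and 644, 658 and 693 in the control. Its sh1 libraries lay above the control and its sh6 libraries below it. The difference of sh6 from sh1 was -0.39 (SE 0.0663, limma adjusted p = 8.9e-06). VARS2 rose with sh1 (log2 change 0.22, adjusted p = 0.00507) and fell with sh6 (-0.17, limma adjusted p = 0.0271). The fall with sh6 was lost without control replicate 3, sh6 replicate 2 or sh6 replicate 3 (adjusted p = 0.0813, 0.0771 and 0.132) and under median centring (adjusted p = 0.0580).

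KARS and QARS were the cytosolic members that were higher in sh6 than in sh1, by 0.28 (SE 0.0509, limma adjusted p = 2.3e-05) and 0.16 (adjusted p = 0.00936; 0.145 under quantile normalisation). KARS had 8706, 8685 and 8834 with sh6, 7353, 6917 and 7329 with sh1 and 7384, 7496 and 7993 in the control, so that sh6 stood above both other groups. It rose with sh6 (log2 change 0.20, limma adjusted p = 0.00112), with a value of -0.08 with sh1 (adjusted p = 0.169). Its own compartments cannot be told apart in counts per gene, since 1 gene encodes both lysine enzymes.

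Of the 8 members in the multi-synthetase complex (DARS, EPRS, IARS, KARS, LARS, MARS, QARS and RARS), 1 rose and 2 fell with sh1, and 1 rose and 3 fell with sh6. The shares that fell lay near those of all genes (30.0% with sh1 and 33.6% with sh6). The shares that rose lay below those of all genes (29.0% with sh1 and 34.2% with sh6). In sh6 against sh1, where 30.8% of all genes were higher and 28.9% lower, they gave 2 higher and 3 lower, while the 12 cytosolic members outside it gave 0 higher and 9 lower. EPRS, the largest subunit, had 5804, 6206 and 6223 with sh6, 7382, 7053 and 7170 with sh1 and 7138, 7369 and 6904 in the control. Its sh6 libraries lay under all others, with a log2 change of -0.23 with sh6 (limma adjusted p = 0.000215) and 0.01 with sh1 (adjusted p = 0.840; 0.161 and 0.00609 under quantile normalisation). The scaffold AIMP1 fell with sh6 (-0.46, limma adjusted p = 5.8e-08), with -0.14 and an adjusted p of 0.0506 with sh1. AIMP2 rose by 0.19 with sh1 and 0.18 with sh6 (limma adjusted p = 0.00356 and 0.00355). EEF1E1 fell with sh1 (-0.30, limma adjusted p = 0.000132), with -0.03 with sh6 (adjusted p = 0.659).

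MARS, CARS and NARS, for methionine, cysteine and asparagine, rose with sh1 and did not pass the test with sh6. MARS averaged 4280 ± 88.9 with sh6, 4975 ± 70.1 with sh1 and 4118 ± 143 in the control. Its log2 change was 0.27 with sh1 (limma adjusted p = 3.1e-05) and 0.06 with sh6 (adjusted p = 0.336). CARS had 0.26 with sh1 (limma adjusted p = 0.000534) and 0.09 with sh6 (adjusted p = 0.193). NARS had 0.20 with sh1 (limma adjusted p = 0.00180) and -0.03 with sh6 (adjusted p = 0.646). MARS and NARS lay lower in sh6 than in sh1 by called differences (-0.21 and -0.23, limma adjusted p = 0.000513 and 0.000458). For CARS that difference was -0.17 (adjusted p = 0.0177) and was lost without sh1 replicate 1, sh1 replicate 2 or sh6 replicate 3 (adjusted p = 0.0588, 0.0781 and 0.0786). YARS, for tyrosine, fell with sh6 (-0.23, limma adjusted p = 0.000282), with -0.09 with sh1 (adjusted p = 0.140). Its difference of sh6 from sh1 was -0.14 (limma adjusted p = 0.0218) and was lost without sh1 replicate 3 or sh6 replicate 2 (adjusted p = 0.0810 and 0.129). RARS, for arginine, fell with sh1 (-0.16, limma adjusted p = 0.00955), a call lost without control replicate 1 or sh1 replicate 2 (adjusted p = 0.0515 and 0.0661) and under quantile normalisation (0.552). DARS, for aspartate, and IARS passed in none of the 4 comparisons, with log2 values from 0.03 to 0.09 in DARS and from -0.08 to 0.10 in IARS. With sh1, IARS passed under quantile normalisation (0.229, limma adjusted p = 0.000282), median centring (0.0419), sample weights (0.0146) and without control replicate 3 (0.0388). DARS passed with sh1 under quantile normalisation (limma adjusted p = 0.0196) and with sh6 under sample weights (0.0483).

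Among the other mitochondrial members, RARS2 rose with sh6 (log2 change 0.27, limma adjusted p = 0.000146), with 0.02 with sh1 (adjusted p = 0.737). YARS2 averaged 299 ± 14.6 with sh6, 260 ± 5.58 with sh1 and 232 ± 6.08 in the control, and rose with sh6 (0.30, limma adjusted p = 0.000862), with 0.13 with sh1 (adjusted p = 0.133). MARS2 rose with sh1 (0.35, limma adjusted p = 0.000951) and averaged 158 ± 25.2 with sh6, 199.8 ± 7.06 with sh1 and 145 ± 5.50 in the control. TARS2, for threonine, fell with sh6 (-0.18, limma adjusted p = 0.0148), a call lost without control replicate 3 or sh6 replicate 2 (adjusted p = 0.0630 and 0.0582). FARS2, for phenylalanine, rose with sh6 (0.20, limma adjusted p = 0.0127), a call lost without control replicate 1 or sh6 replicate 2 (adjusted p = 0.0673 and 0.0777). EARS2, NARS2, PARS2 and WARS2, for glutamate, asparagine, proline and tryptophan, did not pass against the control with either hairpin, with log2 changes from -0.11 to 0.15. With sh6, PARS2 passed without a filter (limma adjusted p = 0.0301), under median centring (0.0450) and under eBayes without a trend (0.0378). WARS2 passed with sh6 under sample weights (0.0440). In sh6 against sh1 WARS2 was higher (0.21, limma adjusted p = 0.0193). That call was lost without sh1 replicate 1, sh6 replicate 2 or sh6 replicate 3 (adjusted p = 0.0549, 0.121 and 0.0658).

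The members were also read by the class of their catalytic fold, leaving aside EPRS, which has both. In sh6 against sh1, 4 of 18 class I genes were higher and 9 lower, and 3 of 17 class II genes were higher and 6 lower, beside 30.8% of all genes higher and 28.9% lower. With sh1, class I gave 6 higher and 4 lower and class II gave 8 and 2, beside 29.0% and 30.0% of all genes. With sh6, class I gave 5 higher and 6 lower and class II gave 7 and 4, beside 34.2% and 33.6% of all genes.

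The genes around the synthetases were read from lists of textbook members, drawn up with earlier results of these data known. Of 34 ATF4-induced and amino acid genes, 11 rose and 11 fell with sh1, near the 29.0% and 30.0% of all genes. With sh6, 5 rose and 26 fell, beside 34.2% and 33.6% of all genes. Between the hairpins (sh6 against sh1), 2 were higher and 25 lower, beside 30.8% and 28.9% of all genes, with a median difference of -0.56 against 0.01 for all genes. ASNS, asparagine synthetase, averaged 889 ± 63.0 with sh6, 1839 ± 71.4 with sh1 and 1712 ± 150.3 in the control, and was lower in sh6 than in sh1 by 1.00 on the log2 scale (limma adjusted p = 2.4e-14). CEBPG, a partner of ATF4, rose with sh1 (0.43, limma adjusted p = 1.2e-06) and fell with sh6 (-0.61, adjusted p = 1.4e-09). Of this list, DDIT4, VLDLR, TRIB3 and NUPR1 had the largest changes for the mean of both hairpins, from -1.13 to -0.79. The ATF4 transcript itself averaged 15456 ± 816 with sh6, 15252 ± 554 with sh1 and 16151 ± 310.1 in the control, with log2 changes of -0.06 with sh6 and -0.08 with sh1 (limma adjusted p = 0.285 and 0.180). ATF4 is known to be controlled mainly at translation, which these counts do not measure.

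Of 6 genes that sense uncharged transfer RNA or form eIF2, 2 rose and 3 fell for the mean of both hairpins, in which 32.3% of all genes rose and 33.1% fell. EIF2S1, the eIF2 subunit that GCN2 phosphorylates, rose by 0.39 with sh1 and 0.40 with sh6 (limma adjusted p = 7.2e-07 and 4.5e-07), while EIF2S3 fell by 0.34 with sh1 and by 0.62 with sh6 (adjusted p = 2.4e-06 and 1.1e-11). IMPACT, an inhibitor of GCN2, fell by 0.51 with sh1 and by 0.48 with sh6 (limma adjusted p = 2.2e-06 and 4.6e-06). EIF2AK4, which encodes GCN2, had values of 0.05 with sh1 and 0.13 with sh6 (adjusted p = 0.487 and 0.0692). XPOT, the export receptor of transfer RNA, rose with sh1 (0.30, limma adjusted p = 4.3e-05) and fell with sh6 (-0.16, adjusted p = 0.0145). Of 18 tested genes of transfer RNA maturation and export, 8 rose and 1 fell for the mean of both hairpins, beside the same 32.3% and 33.1% of all genes. The list was led by POP1 of ribonuclease P (0.44, limma adjusted p = 1.1e-06).

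Of 6 tested elongation factors that carry charged transfer RNA, 2 rose and 2 fell for the mean of both hairpins, near the 32.3% and 33.1% of all genes. EEF1A1, the cytosolic carrier, averaged 136161 ± 1991 with sh6, 111392 ± 1745 with sh1 and 169329 ± 10840 in the control, and fell by 0.31 on the log2 scale with sh6 and by 0.60 with sh1 (limma adjusted p = 4.1e-05 and 6.1e-10). TUFM, its mitochondrial counterpart, rose with sh6 (0.32, limma adjusted p = 8.0e-06), with 0.11 with sh1 (adjusted p = 0.0788). In the selenocysteine list of 6, EEFSEC rose by 0.23 with sh1 and 0.54 with sh6 (limma adjusted p = 0.0127 and 3.7e-07), and 2 rose and 1 fell for the mean. For mitochondrial amidation and formylation 1 of 4 rose (GATC, 0.19) and 1 fell (QRSL1, -0.25), and for proofreading 2 of 3 tested rose (AARSD1, 0.29, and DTD1, 0.16) and 0 fell, all for the mean of both hairpins and beside the same shares of all genes.

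Because WARS is induced by interferon-gamma, 17 tested genes of that response were read beside it. For the mean of both hairpins 1 rose and 11 fell, beside 32.3% and 33.1% of all genes, with GBP4, GBP2, ICAM1 and CXCL10 from -1.34 to -0.69. IRF1, a transcription factor of that response, fell by 0.29 with sh1 and by 0.70 with sh6 (limma adjusted p = 0.000176 and 1.8e-11).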

How the data were processed

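RNA with poly(A) tails from 9 samples was read as 100-base pairs, per the labels. According to the submitters' processing notes hg19 was the build, and the tools were cutadapt, STAR, Salmon and DESeq2. The authors deposited 1 table of variance-stabilised values on a log2-like scale, which its name calls batch-corrected. The batches and the method of correction are not given in the sources used here. Beside them stand the authors' log2 fold change and p-value (adjusted) for a comparison that is not stated.

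All values share the floor 5.02. Inverting the transformation gave normalised counts, and the steps between low values gave the size of 1 read in each library (76.6% to 80.3% of values between 0.5 and 20.5 recovered reads were whole within 0.05). Folds are ratios of mean normalised counts. A log2 change is a difference between deposited values and understates the change of low genes.

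Genes with a mean at least 1 above the floor (normalised count 16.2) were tested with limma 3.58.1 in R 4.3.3 (lmFit, eBayes with a trend). All 9 samples entered 1 model of 3 groups, and two-sided p values, with Benjamini-Hochberg adjustment over 13165 genes, were called under 0.05. The fit was tested on simulated data. Members and lists were chosen with earlier results of these data known. All 36 members could be named. Library values were due for the 12 called members with the largest change for the mean of both hairpins and the 6 with the largest difference of sh6 from sh1, and up to 4 genes of each related list were named. Library values of EPRS, FARSB, IARS2 and KARS, and the genes ZMAT2, ASNS, CEBPG, ATF4, XPOT, EIF2AK4 and IRF1, were chosen after their values were seen. Promoters came from RefSeq (GRCh38.p14) and lengths from GENCODE release 29. Alternatives covered filters, scalings, priors, thresholds, sample weights, recovered-read scales, a replicate block and each sample left out.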

Additional observations from a re-analysis of the deposited data

Results flagged for a closer look

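TARS, the cytosolic threonine enzyme, was picked out because the hairpins moved it in opposite directions, each past the test: -0.35 with sh6 and 0.12 with sh1. The test of the difference itself gave -0.47 for sh6 against sh1 (SE 0.0509, limma adjusted p = 3.0e-09). VARS2, the mitochondrial valine enzyme, was picked out for the same reason, with -0.17 with sh6, 0.22 with sh1 and a difference of -0.39 (SE 0.0663, limma adjusted p = 8.9e-06). In both genes 3 of 3 sh6 libraries lay below the control range and 3 of 3 sh1 libraries above it. The smaller change of each, with sh1 for TARS and with sh6 for VARS2, is the one whose call is lost when certain single libraries are left out, as given above. For TARS with sh1 the call was also lost under eBayes without a trend (limma adjusted p = 0.0856). For VARS2 with sh6 it was also lost without a filter and under median centring (limma adjusted p = 0.0669 and 0.0580). Groups of 3 are too small for a search for stray samples.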

How the results depend on the processing

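The counts and medians of the cytosolic and mitochondrial genes were recomputed under each alternative. The replicate block, robust eBayes, eBayes without a trend, other filters and only the groups compared moved none of the counts by over 1.5 times. Calls of single members did change under some of them. EBayes without a trend lost 7 calls and gained 2, and no filter lost 11 and gained 3. Quantile normalisation gave, with sh1, 14 cytosolic genes higher and 1 lower (median 0.204) and 1 mitochondrial gene lower, and for the mean of both hairpins 11 and 5 cytosolic (median 0.115). In sh6 against sh1 it gave 1 cytosolic gene higher (median -0.266) and a mitochondrial median of 0.144. Median centring gave a cytosolic median of 0.103 with sh1 and 1 mitochondrial gene lower with sh6. Sample weights gave 8 mitochondrial genes higher with sh1 and a mitochondrial median of 0.096 in sh6 against sh1, where the log2 of the recovered count plus 1 gave 0.136 and voom on recovered reads 0.133. Without GARS and KARS the cytosolic median with sh1 was 0.114, and 1 cytosolic gene was higher in sh6 than in sh1. At an adjusted p under 0.01, mitochondrial genes gave 0 lower with sh6, 5 higher for the mean and 3 higher in sh6 against sh1. A change of at least 1.2-fold left, cytosolic, 5 higher and 1 lower with sh1, 3 and 5 with sh6, 2 and 2 for the mean and 1 and 5 in sh6 against sh1. Mitochondrial, it left 1 lower with sh1, 0 lower with sh6, 4 higher and 1 lower for the mean and 2 higher in sh6 against sh1. Shares of all genes at the stricter thresholds are not given here. The cause of these moves, beyond the stricter thresholds and the smaller set, was not tested.

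Leaving out 1 library at a time gave 2 to 4 cytosolic genes lower and 5 to 8 mitochondrial genes higher with sh1, 0 to 4 mitochondrial genes lower with sh6 and 3 to 5 higher in sh6 against sh1. The cytosolic median with sh1 ran from 0.067 to 0.091 and the mitochondrial median of sh6 against sh1 from 0.088 to 0.127, lowest without control replicate 3 and without sh1 replicate 2. The cytosolic median with sh6 lay near 0 (-0.002), ran from -0.028 to 0.024 and was 0.023 under median centring. Among called values of single members, 1 changed sign (SARS with sh1, 0.009 under quantile normalisation). Otherwise 3080 values kept their side of the threshold, 145 lost the call and 50 gained it, and some uncalled values near 0 changed sign. Without control replicate 3, FARS2, IARS, LARS2 and TARS2 passed with sh1 (adjusted p from 0.0388 to 0.0487) and RARS with sh6 (0.0428). The fit on only the groups compared gives no value for the mean of both hairpins.

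Libraries with the same replicate number deviated together with r from -0.13 to 0.18, so the numbers were not taken as pairs. The table's name calls the values batch-corrected, and a batch removed beforehand would not show in these r. With the replicate block the cytosolic genes gave 9 higher and 4 lower with sh1, as without it, and FARSA passed in sh6 against sh1 (adjusted p = 0.0342). The lowest mean counts among the members were those of MARS2 (158 with sh6, 199.8 with sh1 and 145 in the control), and the effect of depth on single members was not tested.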
